A study of Bos taurus with 27 samples.

Results

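Among the 116933 loci assembled from RNA of bovine embryos, 129 were assembled with 20 or more transcripts, and these are the loci described here. They were found by counting rows per locus in the identifiers, each of which gives a locus number and a transcript number. No measured level entered this count, although the assembly behind the identifiers was itself built from sequencing reads. The 129 loci held 3219 of the 173449 transcript rows. The embryos were grown in SOF medium under oil at 38.5 C, and polyadenylated RNA was amplified with the SMART-Seq v4 low-input kit. The groups were 11 libraries of Bos taurus parthenotes at the 8-cell stage, 8 libraries of late 8-cell embryos made by in vitro fertilisation (late 8-cell IVF) and 8 libraries of 8-cell embryos made the same way (8-cell IVF). Both IVF groups were F1 embryos of Bos taurus and Bos indicus. Parthenotes arise from oocytes that were activated in the absence of sperm, so their genome is maternal. Breed therefore differs along with parthenogenesis, and the effects of these cannot be told apart. Between parthenotes and late 8-cell IVF the labelled stage differs as well, 8-cell against late 8-cell, and cannot be told apart from them either. The 8-cell IVF libraries carry sequencing request number 18062 and both other groups carry 19058, so that request and group cannot be told apart in comparisons with 8-cell IVF. The labels leave unsaid how many embryos or cells went into a library and whether replicates were cultured separately. The p-values thus measure the spread among these libraries, which may be technical.

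One gene can give several transcripts, through alternative start sites, splicing and polyadenylation sites. An assembler such as StringTie builds transcripts from overlapping reads and groups those that overlap into a locus. A locus with many transcripts may hold 1 gene with many isoforms or neighbouring genes joined together, and the identifiers do not say which. Around the 8-cell stage bovine embryos start large-scale transcription of their own genome while maternal RNA left from the oocyte is broken down. The table pairs no identifier with a gene name, position or sequence, so loci are named by identifier.

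Values are FPKM, fragment numbers scaled by transcript length and library size, as the authors deposited them. FPKM is relative to the RNA of the same library, so fewer cells and less RNA per cell cannot be told apart. FPKM sums over all rows ran from 297657 to 418788 per library, and the number of reads behind them is unknown. Late 8-cell IVF replicate 1 stood apart from the other 7 libraries of its group. It lay near the 8-cell IVF libraries at several of the loci described here. Values without it are given for a part of the results, and other calls may also depend on it. A value of exactly 0 may not always be a low level, which was not tested. Some loci of the whole table were at 0 in 1 library and at 5 FPKM or more in every other. They numbered 10, 4 and 9 in late 8-cell IVF replicates 1, 2 and 6, and 0 in each other library. Counted instead as loci at 0 with a median of 50 FPKM elsewhere, they numbered 29, 14 and 12 in these replicates. Parthenote replicate 1 then had 3, and parthenote replicate 9 and late 8-cell IVF replicate 7 had 1 each. Of the 129 loci, 2 were listed at 0 in late 8-cell IVF replicate 1 and 1 in replicate 6, and these zeros are not read as absence.

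The number of rows per locus ran from 20 to 56 with a median of 23. Most loci lay close to the minimum: 83 had 20 to 24 rows and 17 had 30 or more. There were 27 loci with exactly 20 rows, with a median summed level of 12.997 FPKM, and 30 loci just outside with 19 rows, with a median of 28.4 FPKM. MSTRG.37003 had the most rows, 56. Transcript numbers ran without a gap in all 129 loci. None of the 3219 rows was at 0 in every library, whereas 31805 of the 170230 rows of other loci (18.7%) were. Row number went along with summed level among loci with a sum of 1 FPKM or more in at least 8 libraries. The sum adds all rows of a locus, so more rows raise it in part by construction. The median summed level of these loci was 25.3 FPKM with 20 or more rows, 10.6 with 10 to 19, 4.76 with 2 to 9 and 2.14 with 1. For the row with the highest mean in each of the 129 loci, the median was lower. It was 2.26 FPKM in parthenotes, 2.44 in late 8-cell IVF and 2.27 in 8-cell IVF. Contrasts with other loci are thus not independent of level.

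Many rows of a locus were not separate measurements. Rows were compared pairwise within a locus where both were at 0.5 FPKM or more in at least 8 libraries, and rows whose ratio stayed within 1% over those libraries were joined into a fixed-ratio group. Of 2327 rows compared in 123 of the loci, 1334 (57.3%) belonged to such a group, against 47.0% in loci with 10 to 19 rows and 32.7% in loci with 2 to 9 rows. A median of 21 rows compared left a median of 11 distinct profiles per locus, with a range of 1 to 39. In MSTRG.3261, 24 rows formed 1 group, and its highest and lowest rows kept a ratio between 1.006 and 1.010 over 26 libraries. In addition, 721 of the 3219 rows (22.4%), in 109 loci, had values equal to those of another row in every library. Among rows of other loci above 0 in any library the share was 9.44%. A row in a locus with more rows has more partners to match, for equal values as for fixed ratios. No row equalled a row of another locus in every library. Rows of fixed ratio cannot be told apart by these values, so a summed level weights such a profile by its number of rows. Results were therefore also computed with 1 row per fixed-ratio group.

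**Figure D1:**
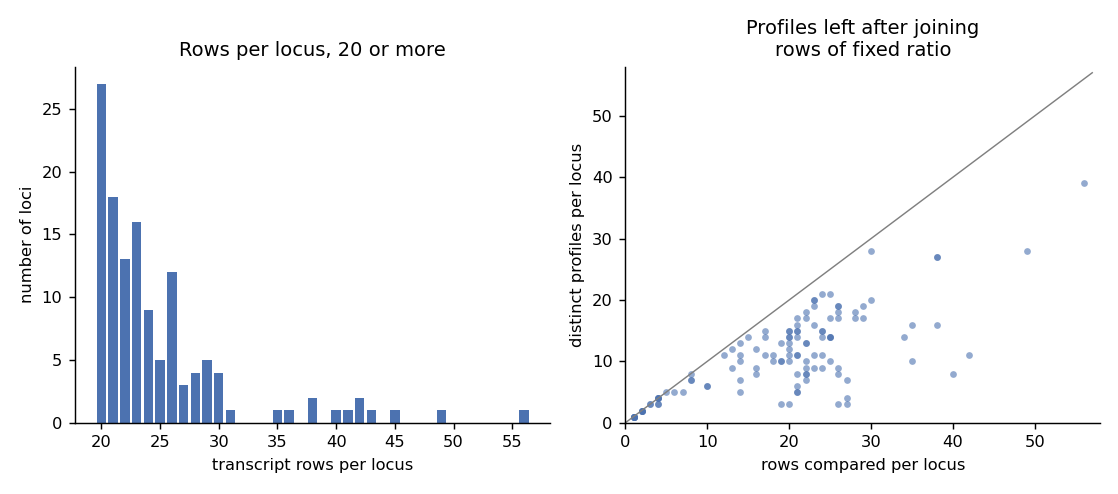
Rows per locus for the 129 loci (left; bars are numbers of loci) and distinct profiles against rows compared for the 123 loci with comparable rows (right; a point is a locus, darker where points overlap, and the line marks equal numbers). Points lie on or below the line, with a median of 21 rows compared and 11 profiles.

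Nearly all of the rows were above 0 in each library, but fewer reached 1 FPKM, the level taken as detection. Rows above 0 numbered 3194 ± 7.46 in parthenotes (SD, n = 11), 3142 ± 52.4 in late 8-cell IVF (SD, n = 8) and 3196 ± 7.53 in 8-cell IVF (SD, n = 8), of 3219. Rows at 1 FPKM or more numbered 1278 ± 95.8 in parthenotes, 1390 ± 105 in late 8-cell IVF and 1291 ± 85.3 in 8-cell IVF, and the libraries of all 3 groups overlapped. Rows at 5 FPKM or more numbered 306.4 ± 39.3 in parthenotes, 477.8 ± 108 in late 8-cell IVF and 294.4 ± 24.6 in 8-cell IVF. Late 8-cell IVF replicate 1 had 228 such rows, the lowest of the 27 libraries, and the other 7 late libraries had 467 to 584, above all libraries of both other groups. As a share of their rows, 39.7% ± 2.98 in parthenotes, 43.2% ± 3.26 in late 8-cell IVF and 40.1% ± 2.65 in 8-cell IVF were at 1 FPKM or more. Rows of all other loci reached 1 FPKM at 17.8% ± 0.728 in parthenotes, 16.2% ± 1.20 in late 8-cell IVF and 17.0% ± 0.869 in 8-cell IVF. Per locus this came to a mean of 9.91 ± 0.743 detected transcripts in parthenotes, 10.8 ± 0.814 in late 8-cell IVF and 10.01 ± 0.661 in 8-cell IVF.

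As a sum over rows, 98 of the 129 loci were at 1 FPKM or more in every library and 61 were at 5 FPKM or more in every library. The number at 1 FPKM or more was 127.3 ± 1.79 in parthenotes, 119.1 ± 5.38 in late 8-cell IVF and 128.8 ± 0.463 in 8-cell IVF. The loci together held 2.42% ± 0.403 of the FPKM sum in parthenotes, 4.71% ± 1.32 in late 8-cell IVF and 2.53% ± 0.180 in 8-cell IVF. Without late 8-cell IVF replicate 1 the late share was 5.08% ± 0.851 (SD, n = 7). MSTRG.63980 alone held 0.225% ± 0.269 of the FPKM sum in parthenotes, 1.998% ± 0.699 in late 8-cell IVF without replicate 1, where it was listed at 0, and 0.106% ± 0.0959 in 8-cell IVF. Without MSTRG.63980 the share of the other loci was 2.19% ± 0.212 in parthenotes, 2.96% ± 0.565 in late 8-cell IVF and 2.43% ± 0.142 in 8-cell IVF. Levels spread widely among the loci, with group means from 1.29 to 1023 summed FPKM in parthenotes, 0.317 to 6592 in late 8-cell IVF (that of MSTRG.63980, its 0 included) and 1.66 to 1106 in 8-cell IVF.

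**Figure D2:**
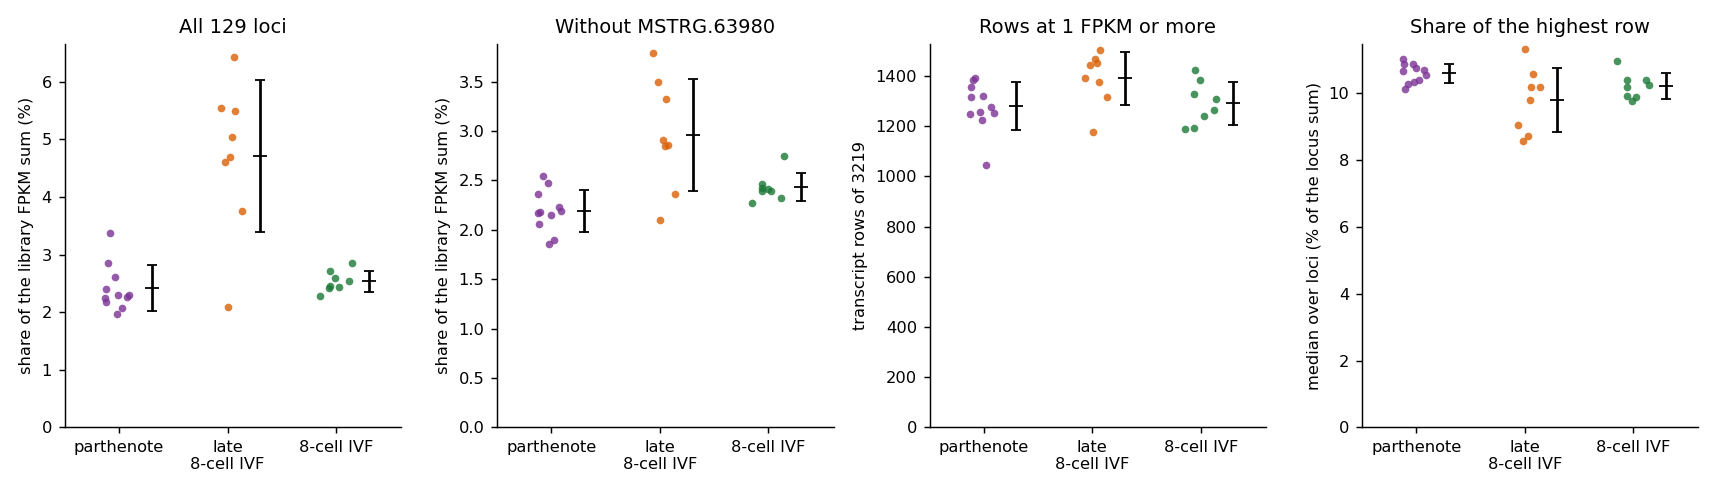
Values of the 129 loci per library: their share of the FPKM sum, that share without MSTRG.63980, the number of their 3219 rows at 1 FPKM or more, and the median share of a locus held by its highest row. Points are libraries (11 parthenote, 8 late 8-cell IVF, 8 8-cell IVF) and bars are mean ± SD; the lowest late 8-cell IVF point in each of the first 3 panels is replicate 1.

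The extremes of level differed in how they varied. MSTRG.2510, with 27 rows, had the second highest mean level, with a lowest, median and highest summed level of 210.6, 971.1 and 1759 FPKM in parthenotes, 573.4, 1002 and 2687 in late 8-cell IVF, and 782.8, 1054 and 1807 in 8-cell IVF. Its groups overlapped broadly, all 27 rows were at 1 FPKM or more in every library, and 12 of them formed 1 fixed-ratio group. MSTRG.74860 had the lowest mean level, with 0.735, 1.31 and 1.69 FPKM in parthenotes, 0.0300, 0.210 and 1.03 in late 8-cell IVF, and 1.05, 1.61 and 2.33 in 8-cell IVF. None of its rows reached 1 FPKM in any library. Its highest late 8-cell IVF library lay just below its lowest 8-cell IVF library.

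The level of each locus was compared between groups as log2(summed FPKM + 1) with limma, fitted over all 16221 loci that reached 1 FPKM in 8 libraries or more, and adjusted p-values under 0.05 (Benjamini-Hochberg) were called. All 129 loci passed that filter. Between late 8-cell IVF and 8-cell IVF, 38 of the 129 rose and 56 fell (29.5% and 43.4%), against a background of 22.6% of all tested loci higher and 42.8% lower. The loci that rose had a median log2 fold change of 1.52 and those that fell of -1.65. A change of at least 2-fold was seen in 29 that rose and 45 that fell, and of at least 8-fold in 6 and 1. No share of all tested loci at these fold changes is given, so these counts describe the 129 loci alone. In loci with 10 to 19 rows, 30.2% rose and 43.4% fell. The median over the 129 loci was -0.25 and over all tested loci -0.44. Rescaling the libraries moved the median of all tested loci to -0.55 with a common FPKM sum, to -0.34 by median-of-ratios factors and to -0.11 by quantile normalization. With a common FPKM sum 33 of the 129 rose and 62 fell (25.6% and 48.1%), against 19.6% and 46.6% of all tested loci. With median-of-ratios factors 44 rose and 52 fell (34.1% and 40.3%), against 25.7% and 39.7%. With quantile normalization 33 rose and 55 fell (25.6% and 42.6%), against 27.6% and 30.2%, so the share that rose lay below the background there and above it in the other fits. The mean over rows in place of the sum was an alternative added after the data were seen. It is the sum divided by the number of rows, so the minimum of 1 FPKM kept 76 of the 129 loci. Of these 76, 33 rose and 25 fell (43.4% and 32.9%), against 22.02% and 43.0% of all loci tested that way. They are only part of the 129, so their balance cannot be set directly against that of the 129. The libraries of late 8-cell IVF and 8-cell IVF did not overlap at 21 loci (16.3%, against 10.6% of all tested loci), and at 66 loci without late 8-cell IVF replicate 1 (51.2%, against 35.0% of all tested loci).

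Between parthenotes and 8-cell IVF, 0 of the 129 loci were called in either direction by limma, against a background of 1.47% higher and 0.419% lower. At an unadjusted p under 0.05 there were 11 of the 129 (8.53%), against 17.2% of all tested loci. The level fold changes ran from -0.75 to 1.27 (log2). Groups overlapped at each of the 129, and failed to overlap at 0.764% of all tested loci. A fit of these 2 groups alone called 3 loci as lower (2.33%) and 0 as higher, against 2.102% lower and 5.68% higher over all tested loci. Leaving out replicate 1 of late 8-cell IVF gave 1 lower locus, against 0.859% of all loci tested.

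Between parthenotes and late 8-cell IVF, 55 of the 129 loci rose and 42 fell (42.6% and 32.6%), against a background of 49.2% higher and 21.7% lower. In loci with 10 to 19 rows, 43.4% rose and 31.2% fell. The median over the 129 loci was -0.01 and over all tested loci 0.55. A change of at least 2-fold was seen in 46 that rose and 31 that fell, again with no share of all tested loci given. Groups did not overlap at 7 loci (5.43%, against 4.24% of all tested loci), and at 50 without late 8-cell IVF replicate 1 (38.8%, against 25.8% of all tested loci). Rescaling moved the median of all tested loci to 0.62 with a common FPKM sum, to 0.40 by median-of-ratios factors and to 0.12 by quantile normalization. With a common sum 58 of the 129 rose and 38 fell, against 52.2% and 19.6% of all tested loci. Median-of-ratios factors turned the balance: 49 rose and 50 fell (38.0% and 38.8%), against 44.1% and 25.8% of all tested loci, and the median over the 129 was -0.25. With quantile normalization 51 rose and 40 fell (39.5% and 31.0%), against 29.5% and 27.7%. With the mean over rows 23 of 76 rose and 34 fell (30.3% and 44.7%), against 49.8% and 20.9% of all loci tested that way. This comparison and the one of late 8-cell IVF with 8-cell IVF share the late libraries.

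**Figure D3:**
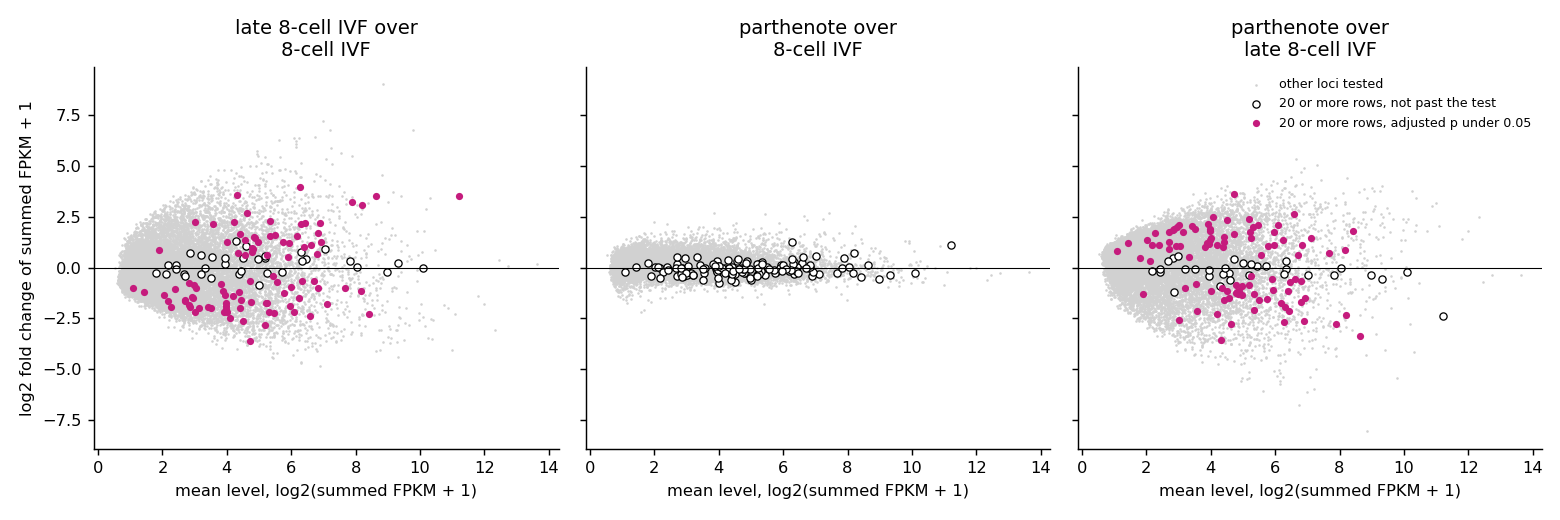
Log2 fold change of summed FPKM + 1 against mean level for the 3 comparisons (in the direction given by each title). Grey points are the other loci tested, filled circles the loci with 20 or more rows past an adjusted p of 0.05 and open circles those not past it; 94, 0 and 97 of 129 are filled.

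The loci with the largest fold changes over all libraries, among those at a mean of 10 FPKM or more in the higher group, are described by their summed level. The order depends on late 8-cell IVF replicate 1: without it MSTRG.63980, at 5.12 on the log2 scale, exceeded MSTRG.115644 at 4.44 and MSTRG.70571 at 4.28 in late 8-cell IVF over 8-cell IVF. MSTRG.115644 had a lowest, median and highest of 6.21, 13.5 and 108.4 FPKM in parthenotes, 10.7, 171.7 and 456.7 in late 8-cell IVF, and 3.16, 6.04 and 26.7 in 8-cell IVF. Late 8-cell IVF overlapped 8-cell IVF through its replicate 1, at 10.7 FPKM. The other 7 late libraries lay at 61.9 or more, above all 8-cell IVF libraries but not above all parthenotes. It rose in late 8-cell IVF over 8-cell IVF by 3.95 on the log2 scale (SE 0.65, limma adjusted p = 8.8e-06). It had 26 rows at 1 FPKM or more in the median late library and 0 in the median 8-cell IVF library. MSTRG.70571 had 0.162, 1.71 and 9.504 FPKM in parthenotes, 0.237, 48.6 and 106.6 in late 8-cell IVF, and 1.32, 2.22 and 3.23 in 8-cell IVF. Late 8-cell IVF replicate 1 was again the low library, and the other 7 lay at 39.9 or more, above all libraries of both other groups. Its log2 fold change was 3.57 in late 8-cell IVF over 8-cell IVF (SE 0.59, limma adjusted p = 1.0e-05) and 4.28 without that library. In parthenotes over late 8-cell IVF it fell by 3.58 on the log2 scale (SE 0.55, limma adjusted p = 3.6e-06), and by 4.29 without that library.

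MSTRG.13248 and MSTRG.85499 were the loci that fell furthest in late 8-cell IVF over 8-cell IVF, with and without late 8-cell IVF replicate 1. MSTRG.13248 had 16.4, 23.7 and 78.4 FPKM in parthenotes, 0.150, 1.39 and 5.62 in late 8-cell IVF, and 19.7, 27.4 and 54.4 in 8-cell IVF. All 8 late libraries lay below all libraries of both other groups. The level fell by 3.63 on the log2 scale in late 8-cell IVF over 8-cell IVF (SE 0.37, limma adjusted p = 2.1e-08), and was higher by 3.63 in parthenotes over late 8-cell IVF (SE 0.34, limma adjusted p = 6.1e-09). Of its rows, 15 formed 1 fixed-ratio group. MSTRG.85499 had 23.8, 40.2 and 56.3 FPKM in parthenotes, 1.61, 5.29 and 38.0 in late 8-cell IVF, and 48.5, 50.6 and 66.5 in 8-cell IVF. All late libraries lay below all 8-cell IVF libraries, with replicate 1 nearest to them. Its level fell by 2.85 on the log2 scale (SE 0.38, limma adjusted p = 5.9e-07), and its detected transcripts numbered 19.1 ± 3.45 in parthenotes, 3.25 ± 6.58 in late 8-cell IVF and 21.6 ± 0.916 in 8-cell IVF. Without late 8-cell IVF replicate 1 the late value was 1.14 ± 3.02 (SD, n = 7).

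In parthenotes over late 8-cell IVF, MSTRG.107981 had the second largest rise over all libraries and MSTRG.70198 the second largest fall. Neither place held without late 8-cell IVF replicate 1, where MSTRG.107981, at 2.08, lay below MSTRG.85499 at 2.74, and MSTRG.63980, at -4.00, fell further than MSTRG.70198 at -3.94. MSTRG.107981 had 20.6, 83.9 and 404.1 FPKM in parthenotes and 19.1, 106.1 and 192.1 in 8-cell IVF. In late 8-cell IVF it was listed at 0 in replicate 1 and ran from 4.32 to 61.2 with a median of 19.5 in the other 7 libraries, so the groups overlapped. The log2 fold change was 2.64 in parthenotes over late 8-cell IVF (SE 0.66, limma adjusted p = 0.00094) and 2.08 without replicate 1 (SE 0.58, limma adjusted p = 0.0023). MSTRG.70198 had 41.8, 84.2 and 129.7 FPKM in parthenotes, 54.6, 1084 and 2259 in late 8-cell IVF, and 52.7, 75.4 and 96.2 in 8-cell IVF. The 54.6 FPKM was that of late 8-cell IVF replicate 1, and the other 7 late libraries lay at 825.6 or more, above all libraries of both other groups. Its level fell by 3.38 on the log2 scale in parthenotes over late 8-cell IVF (SE 0.42, limma adjusted p = 2.0e-07).

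MSTRG.63980, with 22 rows, had the highest mean level and rows that moved in opposite directions. Its summed level was 90.1, 392.2 and 2833 FPKM in parthenotes and 34.0, 216.1 and 809.1 in 8-cell IVF. In late 8-cell IVF it was listed at 0 in replicate 1, and the other 7 libraries had 4304, 6547 and 12286 FPKM, above all libraries of both other groups. The log2 fold change in late 8-cell IVF over 8-cell IVF was 3.52 (SE 1.27, limma adjusted p = 0.017), and 5.12 without that library (SE 0.66, limma adjusted p = 1.2e-07). In parthenotes over late 8-cell IVF the log2 fold change was -2.40 (SE 1.18, limma adjusted p = 0.070), and -4.00 without that library (SE 0.62, limma adjusted p = 1.8e-06).

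The 22 rows of MSTRG.63980 fell into 8 profiles. The largest joined 11 rows, led by transcript 15, which had a median of 26.5 FPKM in parthenotes, 530.6 in late 8-cell IVF (546.6 without replicate 1) and 15.1 in 8-cell IVF. A second joined 4 rows, led by transcript 11, with medians of 12.1 FPKM in parthenotes, 112.1 in late 8-cell IVF (115.8 without replicate 1) and 5.59 in 8-cell IVF. All rows of these profiles enter the sum, so each profile weighs in it by its number of rows. Transcript 18 went the other way, with a lowest, median and highest of 2.12, 3.69 and 10.04 FPKM in parthenotes, 0, 0.228 and 3.33 in late 8-cell IVF, and 1.30, 3.11 and 4.41 in 8-cell IVF. Without late 8-cell IVF replicate 1, where the whole locus was listed at 0, the late values were 0, 0.351 and 3.33 FPKM. It fell in late 8-cell IVF over 8-cell IVF by 1.43 on the log2 scale (limma adjusted p = 5.7e-05 over single rows) and by 1.35 without that library (SE 0.28, limma adjusted p = 0.00011), and late 8-cell IVF overlapped 8-cell IVF. Transcript 21 had medians of 19.5 FPKM in parthenotes, 10.8 in late 8-cell IVF and 7.20 in 8-cell IVF, and was not called between any of the groups, with or without late 8-cell IVF replicate 1. These single rows were chosen after their values were seen.

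**Figure D4:**
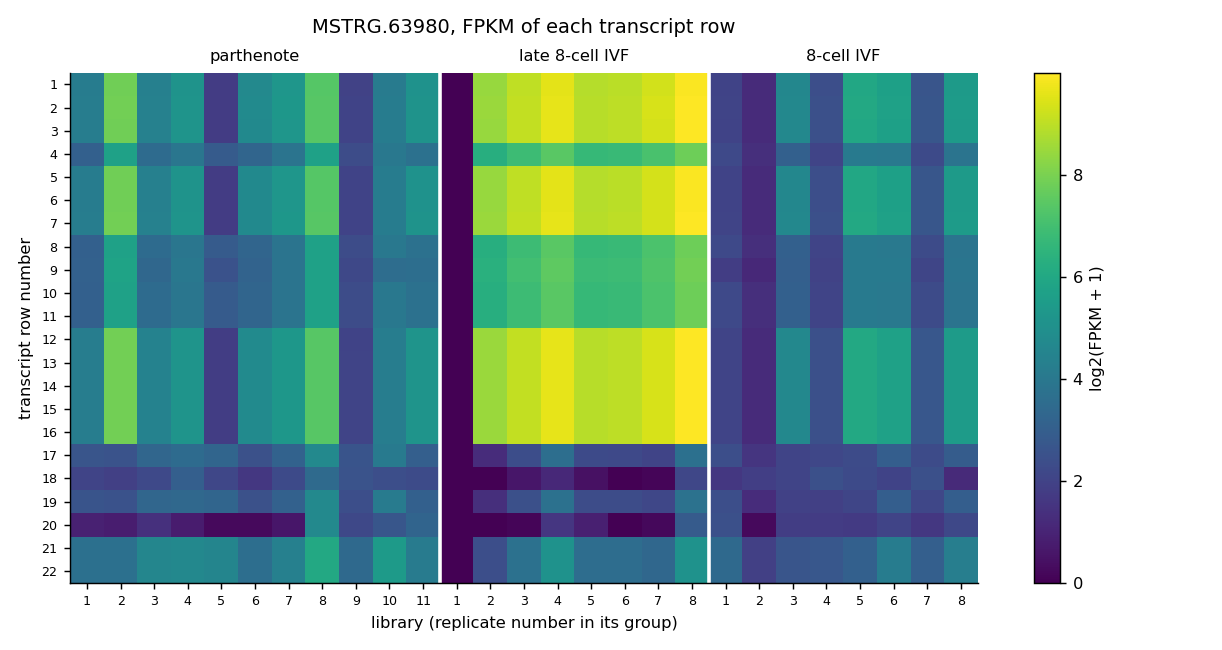
FPKM of the 22 transcript rows of MSTRG.63980 (down) in each of the 27 libraries (across, by group and replicate), as log2(FPKM + 1). Bands of rows with the same colours are the profiles of 11 and of 4 rows, high in late 8-cell IVF replicates 2 to 8; row 18 is low there, and all rows are at 0 in late 8-cell IVF replicate 1.

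Opposite directions within a locus were also counted over all rows, a test added after the data were seen. Single rows at 1 FPKM or more in at least 8 libraries were fitted in the same way, and 94 of the 129 loci had 2 or more such rows. Between late 8-cell IVF and 8-cell IVF, 10 of the 94 had rows called in both directions, against a background of 1.53% of loci with 2 or more rows tested. A locus with more rows has more chances to hold both, and loci with 10 to 19 rows gave 4.86%. A further 38 of the 94 had rows called only as higher, 38 only as lower and 8 had none called. No share of all loci is given for rows called in 1 direction only, so these counts describe the 94 loci alone. Between parthenotes and late 8-cell IVF, 11 of the 94 had both directions, against a background of 1.62% (5% in loci with 10 to 19 rows). Between parthenotes and 8-cell IVF, 0 of the 94 did, where the background was 0% and no single row of the 129 loci was called (14 rows of 2 loci were lower without late 8-cell IVF replicate 1). Without late 8-cell IVF replicate 1, 11 of 93 loci had both directions between late 8-cell IVF and 8-cell IVF, against 2.03% of all such loci and 6.78% of those with 10 to 19 rows. In parthenotes against late 8-cell IVF 12 of 93 had both, against 1.995% and 6.35%.

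The share of the locus sum held by its highest row, the top share, was taken as the measure of dominance by 1 row. Each row of a fixed-ratio group enters the sum, so a profile listed as several rows can lower the top share. Averaged over libraries it ran from 2.77% to 57.2% with a median of 11.3%, where equal rows in a locus of 23 would each hold 4.35%. It was over 50% in 3 loci and under 10% in 57. The median per library was 10.6% ± 0.285 in parthenotes, 9.80% ± 0.964 in late 8-cell IVF and 10.2% ± 0.384 in 8-cell IVF, and the groups overlapped. The same row was highest in every library with at least 1 FPKM in 23 loci, and the median locus had 3 different highest rows. One row was highest in at least 75% of the libraries of late 8-cell IVF and of 8-cell IVF in 52 loci, and it was a different row in 9 of them (17.3%, against 10.8% of 482 loci with 10 to 19 rows). For parthenotes and late 8-cell IVF 44 loci had such a row in each group, and it was a different row in 6 of them (13.6%, against 7.48% of 441). Between parthenotes and 8-cell IVF it was a different row in 0 of 75 loci, against 0.592% of 676. Taking the most frequent highest row of each group, with no minimum share of libraries, it differed in 43 of the 129 loci between late 8-cell IVF and 8-cell IVF (33.3%, against 31.9% in loci with 10 to 19 rows). By that measure, chosen with the 10 to 19 row loci after the data were seen, it differed in 47 between parthenotes and late 8-cell IVF (36.4%, against 28.9%) and in 20 between parthenotes and 8-cell IVF (15.5%, against 14.6%).

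Top share was tested in 116 of the 129 loci, those with a sum of at least 1 FPKM in at least 6 libraries of each group, and libraries below 1 FPKM were left out of a locus's fit. Between late 8-cell IVF and 8-cell IVF it rose in 16 and fell in 30, against a background of 12% higher and 15% lower among 5923 loci. The median change was 7.50 percentage points where it rose and -4.47 where it fell. Of those 46 loci, 32 were also called by level. The other 14 were not called by level. Between parthenotes and 8-cell IVF it rose in 0 and fell in 1, against a background of 0.338% higher and 0.253% lower. Between parthenotes and late 8-cell IVF it rose in 25 and fell in 16, against a background of 13.7% higher and 11.5% lower.

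MSTRG.1227 had the highest top share of the loci at 5 FPKM or more in every library, and gained the most. The lowest, median and highest top share was 34.3%, 43.6% and 50.7% in parthenotes, 56.6%, 74.3% and 81.5% in late 8-cell IVF, and 37.4%, 41.3% and 50.2% in 8-cell IVF. All late libraries lay above all libraries of both other groups. The share was 28.1 percentage points higher in late 8-cell IVF over 8-cell IVF (SE 3.03, limma adjusted p = 6.5e-07). Transcript 2 held it, at 12.7, 15.2 and 27.6 FPKM in parthenotes, 19.6, 21.9 and 49.0 in late 8-cell IVF, and 14.3, 21.1 and 29.0 in 8-cell IVF, with overlapping groups. A fixed-ratio group of 9 rows led by transcript 7 had medians of 0.560 FPKM in parthenotes, 0.146 in late 8-cell IVF and 0.735 in 8-cell IVF, and was below the filter for single rows. In that row all late libraries lay below all 8-cell IVF libraries.

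In MSTRG.7211 the top share moved the other way. It was 19.9%, 36.9% and 62.2% in parthenotes, 7.05%, 8.57% and 47.0% in late 8-cell IVF, and 26.9%, 39.2% and 58.2% in 8-cell IVF. The 47.0% was that of late 8-cell IVF replicate 1, and the other 7 late libraries lay below all libraries of both other groups. The share fell by 27.6 percentage points in late 8-cell IVF over 8-cell IVF (SE 6.21, limma adjusted p = 0.0018) and was 27.9 higher in parthenotes over late 8-cell IVF (SE 5.77, limma adjusted p = 0.00084). Transcript 22 was the highest row on average, with medians of 1.67 FPKM in parthenotes, 0.633 in late 8-cell IVF and 1.77 in 8-cell IVF. Transcript 20 had medians of 0.0610 FPKM in parthenotes, 2.21 in late 8-cell IVF and 0.0945 in 8-cell IVF. Detected transcripts of this locus numbered 0.818 ± 0.751 in parthenotes, 12.5 ± 6.85 in late 8-cell IVF and 0.875 ± 0.354 in 8-cell IVF, of 23. The summed level had a log2 fold change of 2.13 in late 8-cell IVF over 8-cell IVF (limma adjusted p = 1.2e-06), while transcript 22 alone had one of -0.74 (limma adjusted p = 0.017). In this comparison 108 loci were tested by sum and by highest row, and 83 were called by sum and 82 by highest row. Both called 70 of them in the same direction, and MSTRG.7211 alone in opposite directions. No share of all tested loci is given here, so these counts describe the 108 loci alone.

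The top share of MSTRG.51322 was the one called between parthenotes and 8-cell IVF. It was 5.57%, 5.98% and 7.74% in parthenotes, 4.76%, 5.77% and 6.63% in late 8-cell IVF, and 7.11%, 8.74% and 9.998% in 8-cell IVF. Of the parthenotes, 1 library lay within the range of 8-cell IVF and the others lay below it, as did all late 8-cell IVF libraries. The difference was -2.36 percentage points in parthenotes over 8-cell IVF (SE 0.35, limma adjusted p = 0.00055) and -2.82 in late 8-cell IVF over 8-cell IVF (SE 0.38, limma adjusted p = 9.1e-06). The parthenote call was lost with 1 row per fixed-ratio group, where 0 loci were called.

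MSTRG.70824 had the second highest share, 30.9% ± 2.51 in parthenotes, 24.1% ± 3.55 in late 8-cell IVF and 28.5% ± 4.14 in 8-cell IVF. Its difference between late 8-cell IVF and 8-cell IVF (-4.44 points, limma adjusted p = 0.0499) was lost without late 8-cell IVF replicate 1 (limma adjusted p = 0.080). In parthenotes over late 8-cell IVF its share was 6.85 points higher (SE 1.55, limma adjusted p = 0.0019), and 6.42 higher without that library (limma adjusted p = 0.0033). Its summed level in late 8-cell IVF over 8-cell IVF was not called with all libraries (log2 fold change 0.92, limma adjusted p = 0.061). Without late 8-cell IVF replicate 1 it was called (1.31, limma adjusted p = 0.0016). Its detected transcripts likewise went from not called (limma adjusted p = 0.53) to called as higher (limma adjusted p = 0.00042). MSTRG.3261 and MSTRG.33850 had the lowest shares, which large fixed-ratio groups can lower. MSTRG.3261, with a fixed-ratio group of 24 rows, held 2.82% ± 0.187 in parthenotes, 2.76% ± 0.237 in late 8-cell IVF and 2.69% ± 0.188 in 8-cell IVF. MSTRG.33850, with one of 16 rows, held 3.46% ± 0.380 in parthenotes, 3.79% ± 0.571 in late 8-cell IVF and 3.70% ± 0.257 in 8-cell IVF. The summed level of MSTRG.33850 was nevertheless 36.5, 70.7 and 151.7 FPKM in parthenotes, 45.9, 686.9 and 1004 in late 8-cell IVF, and 23.7, 41.7 and 120.4 in 8-cell IVF. Late 8-cell IVF replicate 1 gave the 45.9 FPKM, and the other late libraries lay above all libraries of both other groups. The log2 fold change of its level was 3.25 in late 8-cell IVF over 8-cell IVF (limma adjusted p = 1.6e-06), while its top share was not called. In parthenotes over late 8-cell IVF its top share was not called with all libraries but was called without late 8-cell IVF replicate 1, at a difference of -0.49 points (limma adjusted p = 0.027).

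The highest row of MSTRG.70198 held 4.55%, 6.85% and 9.45% (lowest, median and highest) in parthenotes, 5.33%, 11.96% and 12.3% in late 8-cell IVF, and 5.36%, 6.47% and 9.02% in 8-cell IVF. Late 8-cell IVF replicate 1 gave the 5.33%, and the other late libraries lay above all libraries of both other groups. The difference was 4.43 percentage points in late 8-cell IVF over 8-cell IVF (SE 0.89, limma adjusted p = 0.00061).

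**Figure D5:**
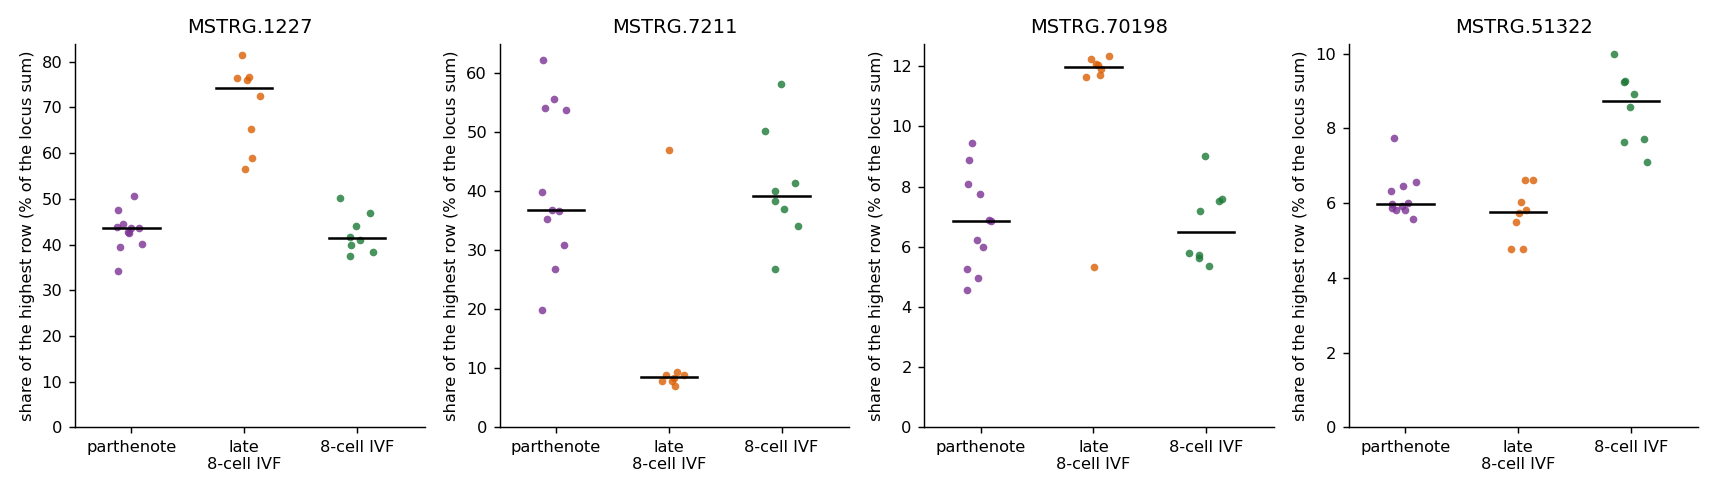
Share of the locus sum held by the highest row in each library (points) at 4 loci, with the group median as a line (11 parthenote, 8 late 8-cell IVF and 8 8-cell IVF libraries). In MSTRG.7211 and MSTRG.70198 the single late 8-cell IVF point near the other groups is replicate 1.

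The number of detected transcripts per locus was tested in 96 of the 129 loci. Between late 8-cell IVF and 8-cell IVF it rose in 24 and fell in 29, against a background of 16.3% higher and 31.6% lower among 2819 loci. Between parthenotes and 8-cell IVF it rose in 0 and fell in 0 by limma, against a background of 0.887% higher and 0.532% lower, and 6 of the 96 (6.25%) had an unadjusted p under 0.05, against 12% of all loci tested. Between parthenotes and late 8-cell IVF it rose in 29 and fell in 27, against a background of 34.4% higher and 16.6% lower. With detection at 0.1 FPKM, where 128 of the 129 loci could be tested, it rose in 10 and fell in 30 between late 8-cell IVF and 8-cell IVF (7.81% and 23.4%), against 7.42% and 22.1% of all loci tested. Between parthenotes and late 8-cell IVF it then rose in 30 and fell in 9 (23.4% and 7.03%), against 24.2% and 7.36%. Since a row is detected by its level, the measure follows level: of the 53 loci called between late 8-cell IVF and 8-cell IVF, 48 were called by level in the same direction, 0 in the opposite direction and 5 not by level. The locus with the most rows, MSTRG.37003, had 1, 45 and 47 rows detected (lowest, median and highest) in parthenotes, 46, 55 and 56 in late 8-cell IVF, and 27, 38.5 and 49 in 8-cell IVF. Its detected rows numbered 23.3 fewer in parthenotes than in late 8-cell IVF (limma adjusted p = 0.0036), and parthenotes overlapped late 8-cell IVF. Its summed level was 25.2, 80.9 and 121.7 FPKM in parthenotes, 102.4, 195.1 and 294.3 in late 8-cell IVF, and 45.1, 79.4 and 157.0 in 8-cell IVF. The level rose by 1.25 on the log2 scale in late 8-cell IVF over 8-cell IVF (limma adjusted p = 0.0016), with overlapping libraries.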

How the data were processed

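The authors deposited 1 table of FPKM per assembled transcript in 27 libraries. FastQC 0.10.1, TopHat2 2.1.0 and StringTie are named in the submitters' processing notes. The genome build, annotation, counting step and strand setting were not given in the sources used here. A RefSeq table (assembly ARS-UCD2.0) matched 0 identifiers. The number of sample columns left unused was 0.

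The loci and the tests were chosen with earlier results of these data known. FPKM were summed per locus. Level as log2(FPKM sum + pseudocount 1), top share and transcripts at 1 FPKM or more were compared with limma 3.58.1 in R 4.3.3 (trend and robust), all 3 groups in 1 fit with no covariate, over all loci that passed each filter. The tests were two-sided, with Benjamini-Hochberg adjustment and a threshold of 0.05. Fold changes on this scale understate changes of low loci. Share was tested where the sum reached 1 FPKM in 6 libraries of each group, and transcript number where loci had 5 or more rows and 2 or more of them at the FPKM minimum in 8 libraries. Read numbers cannot be had from FPKM, so neither a count test nor a counting interval is given. The main fits of level, top share and detected transcripts were run on simulated data with known changes, for late 8-cell IVF over 8-cell IVF alone. Deviations from group means were shuffled over all libraries there, so unequal spread between groups was not covered. The single-row fits were not simulated.

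Named loci were, per level comparison, up to 2 called loci with the highest and 2 with the lowest fold change (mean of 10 FPKM in the higher group, 75% of those libraries higher than the lower group's median), those with the most rows, highest and lowest level and highest and lowest top share, and per share comparison the extreme called loci. Where a locus was the extreme of several rules it is described once. Python 3.11.15, with pandas 2.3.3, numpy 2.4.6 and matplotlib 3.10.9, made the tables and figures.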

Additional observations from a re-analysis of the deposited data

Results flagged for a closer look

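In 44 groups of values of the named loci and summaries, 6 values stood apart from the rest of their group by Dixon's criterion. Chance flags about 1 in 20 groups. MSTRG.85499 stood at 37.974 summed FPKM in late 8-cell IVF replicate 1. MSTRG.2510 stood at 2687.26 in late 8-cell IVF replicate 8 and at 1807.22 in 8-cell IVF replicate 3. MSTRG.1227 stood at 64.123 in late 8-cell IVF replicate 6, and MSTRG.115644 at 26.715 in 8-cell IVF replicate 5. The share of the FPKM sum held by the 129 loci without MSTRG.63980 was 2.74841% in 8-cell IVF replicate 3.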

How the results depend on the processing

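Counts of called loci kept within 1.5 times the reported ones in 300 combinations of result and setting. The 8 fold changes named for level kept their direction and call in all 308 combinations. They were chosen as extreme called values of these data, so this is no independent support. Their size varied. In late 8-cell IVF over 8-cell IVF, MSTRG.13248 ran from -4.43 to -1.01 (log2) and MSTRG.85499 from -3.18 to -1.23. MSTRG.70198 in parthenotes over late 8-cell IVF varied less, from -3.94 to -3.05. With the mean over rows in place of the sum (an alternative added after the data were seen, in which 76 of the loci could be tested), level gave 58 calls between late 8-cell IVF and 8-cell IVF (33 higher, 25 lower) and 57 between parthenotes and late 8-cell IVF (23 higher, 34 lower). With the 2 compared groups alone, 3 loci were called by level between parthenotes and 8-cell IVF. With 1 row per fixed-ratio group (also added), 0 top shares were called between parthenotes and 8-cell IVF. Detection at 5 FPKM left 35 loci to test. Between late 8-cell IVF and 8-cell IVF it gave 18 calls (10 higher, 8 lower). These were 28.6% and 22.9%, against 20.5% and 33.9% of all loci tested. Between parthenotes and late 8-cell IVF it gave 16 (7 higher, 9 lower). These were 20% and 25.7%, against 34.7% and 20.2% of all loci tested. A minimum of 15 rows gave 408 loci and one of 30 gave 17. The cause of these changes was not tested, beyond the smaller number of loci tested. Leaving out each library in turn gave, for late 8-cell IVF over 8-cell IVF, 90 to 104 loci by level, 42 to 50 by top share and 49 to 60 by detected transcripts. For parthenotes over late 8-cell IVF it gave 93 to 107, 35 to 52 and 53 to 63, and for parthenotes over 8-cell IVF 0 to 1, 1 to 2 and 0 to 1. The single level and share additions came without late 8-cell IVF replicate 1, and the detected one without parthenote replicate 7. Samples with the same number correlated between -0.33 and 0.22, so numbers were not taken as pairs. The replicate block gave 95, 0 and 92 loci by level, 39, 1 and 33 by top share and 52, 0 and 51 by detected transcripts, for late 8-cell IVF over 8-cell IVF, parthenotes over 8-cell IVF and parthenotes over late 8-cell IVF. Within-request values cannot be given for comparisons with 8-cell IVF, since each request holds only one of those groups.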
